A study of Mus musculus with 2 samples.

Results

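The transcripts of 9 adhesion genes, of 11691 genes counted, were followed through the blood myeloid cells of aged and young mice after an experimental stroke. The 9 were fixed by name and cover the selectin ligand gene Selplg, the β2 integrin genes Itgam, Itgal and Itgb2, the β1 integrin genes Itga4 and Itgb1, the hyaluronan receptor gene Cd44, the neutrophil surface gene Cd177 and the integrin ligand gene Icam1. All 9 were found in the table by symbol. Both groups were C57BL/6 mice in which the proximal middle cerebral artery had been transiently occluded (MCAo) 24 h before their blood cells were taken. The aged mice were 18 to 24 months old and the young mice 2 to 4 months old, and each age was measured as 1 single-cell RNA library. Both libraries held cells sorted by flow cytometry for the myeloid integrin CD11b, with and without the neutrophil antigen Ly6G, and unoperated mice were not analysed here. CD11b is the product of Itgam, so the presence of that transcript follows from the sort. Whether mice were pooled, and how much of each sorted fraction went into a library, is not given in the sources used here.

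Leukocytes leave the blood in steps. They first roll on selectins of the vessel wall, which bind glycoproteins such as the Selplg product PSGL-1, then arrest when integrins on their surface are switched to a binding state, and then crawl and cross the endothelium. Integrins are pairs of an α and a β chain: αL with β2 (LFA-1) and αM with β2 (Mac-1) bind ICAM-1, and α4 with β1 (VLA-4) binds VCAM-1 and fibronectin. Neutrophils use mainly the β2 integrins, while α4 integrins are prominent on monocytes and lymphocytes.

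The aged library held 3944 cells and 13752454 UMIs (unique molecular identifiers, 1 per captured transcript), and the young library 1849 cells and 6440664 UMIs. By the authors' population labels these were 2681 aged and 1144 young neutrophils, 993 and 552 monocytes, 107 and 53 conventional dendritic cells (cDC), 63 and 73 NK cells, 41 and 14 follicular B cells, 44 and 0 mast cells, and 15 and 13 cells labelled Eryth-Neutro. The neutrophil, monocyte, dendritic, NK and B cell marker lists were each highest in the population of that name. In young cDC 3 of 8 dendritic markers (Zbtb46, Xcr1 and Clec9a) were at 0 UMIs. Several populations carried more of another list than of their own. In monocytes the neutrophil list summed to 38554 aged and 24405 young CPM, against 17244 and 21278 CPM of the monocyte list. The neutrophil list also exceeded the own list in aged NK cells (50330 against 16068 CPM) and aged cDC (22646 against 19034 CPM). In young NK cells and young cDC the own list was the higher. Cells labelled Fol B-cell carried more monocyte marker UMIs (6711 CPM summed over 8 genes in the aged and 5338 CPM in the young library) than B cell marker UMIs (3129 and 4399 CPM over 7 genes). The neutrophil list was higher still in them, at 23897 aged and 12152 young CPM. Cells labelled Mast cell had 355 UMIs of Mcpt8 and 163 of Cd200r3, which are basophil genes, and 1 UMI of Kit, the stem cell factor receptor of mast cells. T cell markers summed to 1201 CPM in aged and 607 CPM in young cells labelled NK. The libraries shared 12 cell barcodes, 5 of them with the same label.

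With 1 library per age no difference between ages has a replicate check, and age and library cannot be told apart. No test was therefore made. Each level is the summed UMIs of a gene over all UMIs of its population, on the CPM scale, each comparison of ages is the ratio of aged over young CPM, and the 95% intervals in parentheses are exact and cover counting error only. A CPM is a share of RNA, so fewer transcripts per cell and more RNA of other genes cannot be told apart in it. A ratio is called past 1.5-fold only for genes with at least 50 UMIs over both libraries. For orientation, the genes lie on mouse GRCm38 (GENCODE M21 annotation, all protein-coding) at chr5:113818536-113832644 (Selplg), chr7:128062640-128118491 (Itgam), chr10:77530252-77565708 (Itgb2), chr7:127296260-127335138 (Itgal), chr2:79255426-79333123 (Itga4), chr8:128685654-128733200 (Itgb1), chr2:102811141-102901665 (Cd44), chr7:24743983-24760311 (Cd177) and chr9:21015985-21028817 (Icam1).

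RefSeq promoter sequences (GRCm38.p6) were at hand for 6 members, and 4 are shown: Cd177 as a gene highest in neutrophils, Itgam as the sort antigen, and Itga4 and Icam1 as genes lower in neutrophils than in monocytes. Each is the 250 bases before the RefSeq start, read 5′ to 3′ on the strand of the gene, from chr7:24760312-24760561 (- strand), chr7:128062390-128062639 (+ strand), chr2:79255176-79255425 (+ strand) and chr9:21015690-21015939 (+ strand). Capitals mark GAGGAA, the core that the myeloid factor PU.1 binds, and GGAAATTCC, a form of the site that NF-κB binds, searched on both strands.
Cd177: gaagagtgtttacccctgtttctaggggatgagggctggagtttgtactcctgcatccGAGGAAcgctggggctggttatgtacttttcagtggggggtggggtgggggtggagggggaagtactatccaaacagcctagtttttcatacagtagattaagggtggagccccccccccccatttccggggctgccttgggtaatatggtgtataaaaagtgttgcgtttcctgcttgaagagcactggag
Itgam: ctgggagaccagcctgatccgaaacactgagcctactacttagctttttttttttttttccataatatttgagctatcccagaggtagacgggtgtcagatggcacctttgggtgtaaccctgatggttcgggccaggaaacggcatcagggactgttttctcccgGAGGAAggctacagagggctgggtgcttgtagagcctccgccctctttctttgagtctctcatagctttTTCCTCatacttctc
Itga4: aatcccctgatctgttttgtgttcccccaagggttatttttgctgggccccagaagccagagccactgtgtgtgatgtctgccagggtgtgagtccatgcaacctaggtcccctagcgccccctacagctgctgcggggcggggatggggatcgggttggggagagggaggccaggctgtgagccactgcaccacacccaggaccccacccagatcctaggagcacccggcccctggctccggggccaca
Icam1: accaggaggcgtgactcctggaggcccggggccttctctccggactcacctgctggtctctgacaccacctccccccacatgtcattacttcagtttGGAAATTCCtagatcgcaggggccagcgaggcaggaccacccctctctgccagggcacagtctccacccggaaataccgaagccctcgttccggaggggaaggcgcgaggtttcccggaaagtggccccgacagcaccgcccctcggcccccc
The PU.1 core stood once in the Cd177 window, 192 bases before the start, and at 84 and 15 bases before the start of Itgam. The Itga4 window held neither motif. The core also stood 9 bases before the start of Itgb1 and at 243 and 220 bases before that of Cd44, whose windows are not printed, so it was not confined to genes high in neutrophils. The NF-κB form stood 153 bases before the RefSeq start of Icam1, which lies upstream of the GENCODE start given above. Over all 32851 promoters of this length 23.3% held the PU.1 core and 0.286% the NF-κB form (the motifs share the letters GGAA and can overlap). A match describes letters in a window and says nothing of binding in these cells.

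Among neutrophils, NK cells, cDC, monocytes and Fol B-cell labelled cells, Selplg stood highest in neutrophils and lowest in monocytes and Fol B-cell labelled cells. Its product PSGL-1 is the main P-selectin ligand of leukocytes. In the aged library it stood at 989.6 CPM in neutrophils, 665 CPM in NK cells, 458 CPM in cDC, 261 CPM in monocytes and 238 CPM in Fol B-cell labelled cells, and in the young library at 930.7, 753, 480.1, 242 and 134 CPM in the same order. Each step of that order down to monocytes was larger than counting error in both libraries, whereas monocytes and Fol B-cell labelled cells did not differ beyond it. Monocytes over neutrophils, the CPM ratio was 0.264 (0.25 to 0.278) in the aged and 0.260 (0.240 to 0.282) in the young library. Monocytes had more UMIs per cell, and counted per cell the monocyte over neutrophil ratio of Selplg UMIs came to 0.854 in the aged and 0.969 in the young library.

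In neutrophils the ratio of aged over young was 1.06 (1.01 to 1.12) from 5585 aged and 1913 young UMIs, and in monocytes it was 1.08 (0.993 to 1.17) from 1767 and 894 UMIs. In cDC it was 0.954 (0.797 to 1.15) and in NK cells 0.884 (0.675 to 1.16), while Fol B-cell labelled cells had a wide interval at 1.77 (0.880 to 4.05) from 65 and 9 UMIs. After thinning every cell to 500 UMIs, 39.6% of aged and 38.0% of young neutrophils held a Selplg UMI, against 83.7% and 79.9% as deposited.

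**Figure D1:**
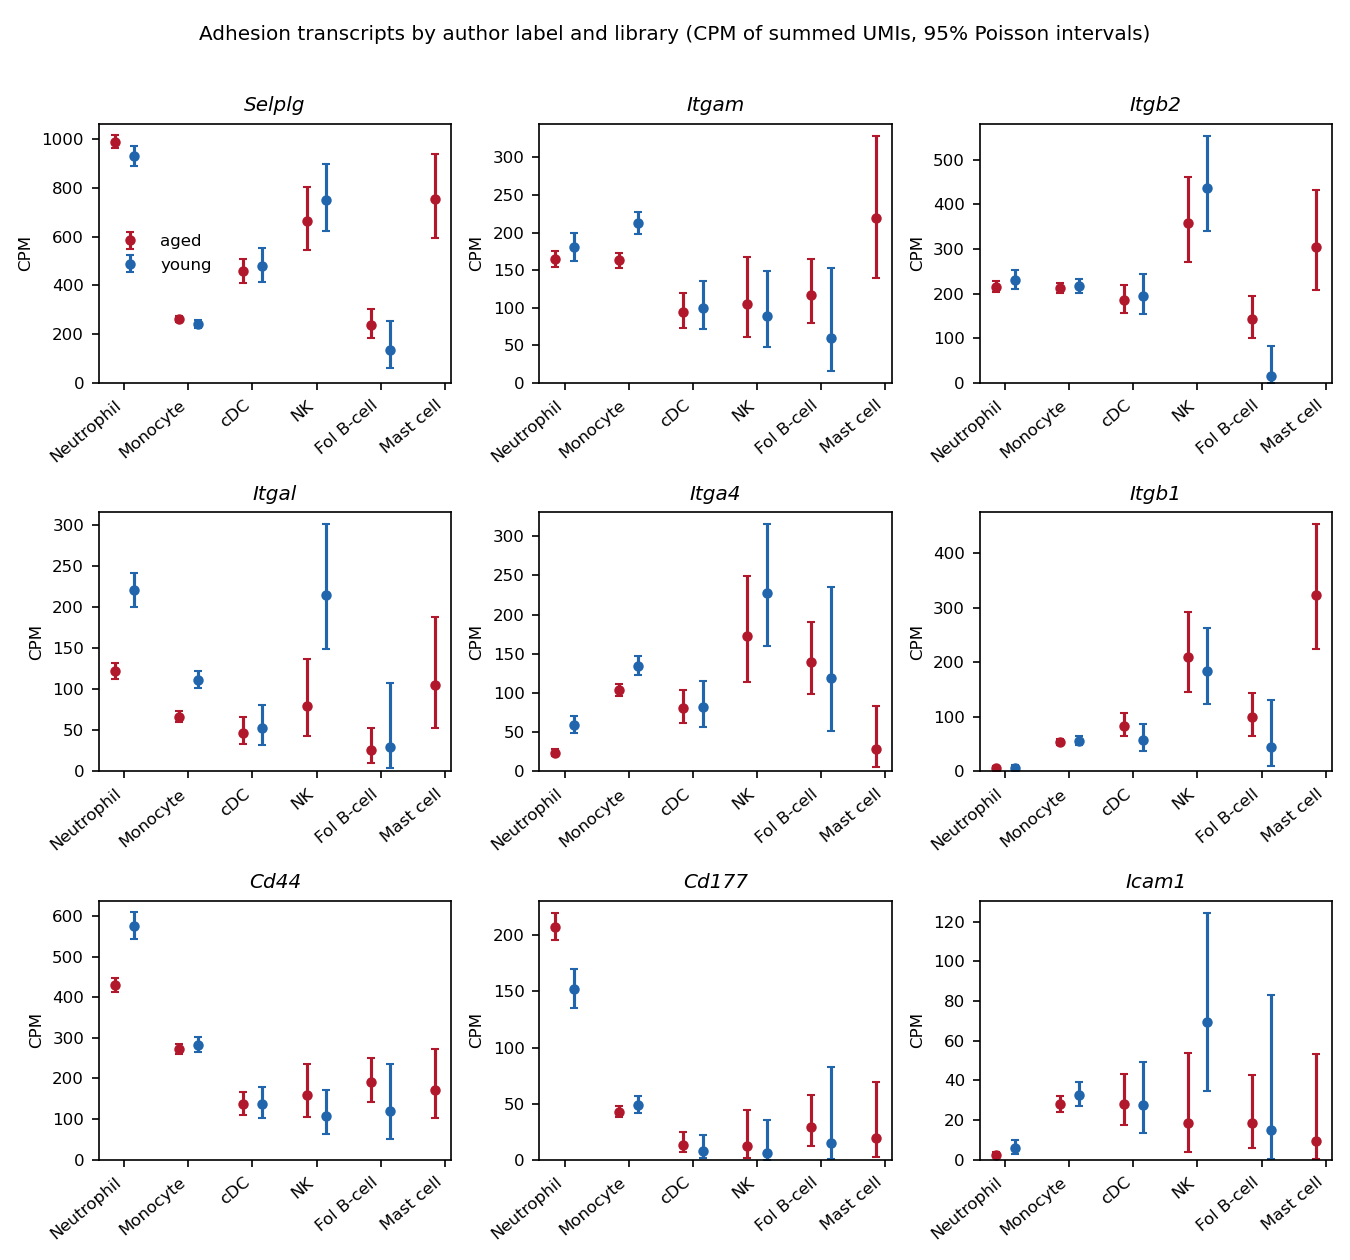
Level of each of the 9 genes (vertical axis, CPM of summed UMIs) in the populations labelled by the authors (horizontal axis), aged library in red and left, young library in blue, with exact 95% Poisson intervals. Selplg, Cd44 and Cd177 stand highest in neutrophils, at 989.6, 430.0 and 208 CPM in the aged library, and Itgb1 and Icam1 lowest there, at 7.09 and 2.30 CPM; the label Mast cell has aged cells only.

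Of the β2 integrin genes, Itgal was lower in the aged library in neutrophils and monocytes, while Itgb2 was near even. Itgb2 encodes the β2 chain shared by LFA-1 and Mac-1. Its level was 357 CPM in aged and 436 CPM in young NK cells, 215 and 231 CPM in neutrophils, 212 and 216 CPM in monocytes and 186 and 195 CPM in cDC. NK cells were above neutrophils by 1.66-fold (1.25 to 2.16) in the aged and 1.89-fold (1.45 to 2.44) in the young library, and neutrophils, monocytes and cDC did not differ as neighbours in that order beyond counting error. The ratio of aged over young was 0.930 (0.836 to 1.04) in neutrophils, 0.980 (0.898 to 1.07) in monocytes, 0.956 (0.719 to 1.28) in cDC and 0.819 (0.567 to 1.18) in NK cells, so each interval included 1.

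Itgam encodes the αM chain of Mac-1, which binds ICAM-1, fibrinogen and complement fragments. It stood at 165 CPM in aged and 180.5 CPM in young neutrophils and at 163 and 212.5 CPM in monocytes, so that aged monocytes were at the level of aged neutrophils (0.989-fold, 0.905 to 1.08) while young monocytes were above young neutrophils (1.18-fold, 1.04 to 1.34). The ratio of aged over young was 0.767 (0.70 to 0.842) in monocytes and 0.914 (0.809 to 1.03) in neutrophils. For Itgam and for Itgb2 in neutrophils the direction turned with the scaling, to 1.13 (1.00 to 1.28) and 1.15 (1.04 to 1.28) with TMM factors. Itgam transcripts were also counted in NK cells, at 105 CPM in the aged library (17 UMIs) and 88.5 CPM in the young library (14 UMIs), and these cells had passed a sort on its product.

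Itgal, the αL chain of LFA-1, was lower in the aged library in both main populations. In neutrophils it had 688 aged and 453 young UMIs, that is 122 and 220.4 CPM, and a ratio of 0.553 (0.491 to 0.624). In monocytes it had 450 and 411 UMIs, 66.5 and 111 CPM, and a ratio of 0.597 (0.521 to 0.684). Monocytes over neutrophils, Itgal stood at 0.545 aged and 0.505 young by CPM, but at 1.77 and 1.88 in UMIs per cell. Thinned to equal depth, 6.45% of aged and 9.35% of young neutrophils held an Itgal UMI, as did 3.12% of aged and 5.80% of young monocytes; as deposited the shares were 22.5% and 30.4% of neutrophils and 31.6% and 43.7% of monocytes. In cDC the ratio was 0.900 (0.510 to 1.63). NK cells had 13 aged and 34 young UMIs, 80.1 and 215 CPM, which is below the 50 UMIs set for a call; that ratio was 0.372 (0.180 to 0.724), and the T cell markers given above differ between the same cells. The ratios of Itgb2, the chain with which αL pairs, lay between 0.819 and 0.980 in the same 4 populations, and the difference between both genes was not tested.

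Both Itgal calls depended on the setting. In neutrophils the ratio was 0.685 (0.608 to 0.773) with TMM factors, which is short of 1.5-fold, and 0.652 when centred on the median of all genes. In monocytes, leaving out every cell with a UMI of Spp1, Dmkn or the C1q genes, an alternative chosen after seeing the data, kept 314 aged and 370 young cells and gave 0.768 (0.628 to 0.937), again short of 1.5-fold. Within the classical range of monocytes (below) the ratio was 0.637 (0.5505 to 0.7375).

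The β1 integrin genes stood higher in monocytes than in neutrophils in both libraries. Itga4 encodes the α4 chain of VLA-4. Monocytes held 104 CPM in the aged and 135 CPM in the young library, against 23.9 and 58.9 CPM in neutrophils, and the monocyte over neutrophil ratio was 4.34 (3.60 to 5.25) in the aged and 2.29 (1.87 to 2.82) in the young library. NK cells were highest, at 173 aged and 228 young CPM. In the aged library NK cells, Fol B-cell labelled cells, monocytes and cDC followed each other without steps beyond counting error, and the step down to neutrophils was the one beyond it (cDC over neutrophils 3.39-fold, 2.46 to 4.63). In the young library the step beyond counting error was that of NK cells over monocytes (1.69-fold, 1.17 to 2.37), and cDC over neutrophils was 1.40-fold (0.924 to 2.07).

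Among the members with 50 or more UMIs, Itga4 had the lowest ratio of aged over young in neutrophils and NK cells, and Itgal in monocytes and cDC. In neutrophils 135 aged and 121 young UMIs gave a ratio of 0.406 (0.316 to 0.524), and after thinning 1.12% of aged and 3.32% of young neutrophils held a UMI. The ratio in monocytes was 0.770 (0.685 to 0.865) from 702 and 497 UMIs, in cDC 0.982 (0.632 to 1.55) and in NK cells 0.758 (0.445 to 1.28). The level in neutrophils was low in both libraries, and among aged neutrophils with an Itga4 UMI, 128 had none of Itgb1 and 1 had both.

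Itgb1, the β1 chain, was close to the detection limit in neutrophils, at 7.09 CPM in the aged (40 UMIs) and 6.32 CPM in the young library (13 UMIs), so that its ratio of 1.12 (0.587 to 2.28) is wide. In monocytes it stood at 54.1 and 56.4 CPM, 7.63-fold (5.495 to 10.9) above neutrophils in the aged and 8.91-fold (5.10 to 17.0) in the young library. The age ratio was 0.959 (0.807 to 1.14) in monocytes, 1.46 (0.890 to 2.46) in cDC and 1.14 (0.675 to 1.94) in NK cells. Its highest level, 324 CPM (225 to 453) from 34 UMIs, was in the cells labelled Mast cell, which the young library lacked; NK cells followed at 209.5 CPM in the aged and 183 CPM in the young library. In those aged cells labelled Mast cell Itga4 had 3 UMIs.

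Cd44 encodes a receptor for hyaluronan that in mice also carries E-selectin ligands. Its level was 430.0 CPM in aged and 576 CPM in young neutrophils, 273 and 283 CPM in monocytes and 136 and 138 CPM in cDC. Monocytes over neutrophils, the CPM ratio was 0.635 (0.597 to 0.675) in the aged and 0.492 (0.452 to 0.535) in the young library. Monocytes had more UMIs per cell, and counted per cell the order turned, with Cd44 ratios of 2.06 and 1.83. Between ages the ratio was 0.747 (0.696 to 0.801) in neutrophils, an interval wholly below 1 though short of 1.5-fold, and 0.964 (0.893 to 1.04) in monocytes. With TMM factors the neutrophil ratio was 0.925 (0.863 to 0.992).

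Cd177 encodes a glycoprotein anchored in the outer membrane of neutrophils, which in humans binds PECAM-1 of endothelial junctions. Its level was highest in neutrophils in both libraries, and its ratio of aged over young there was the highest among the 8 members measured. Neutrophils held 1172 aged and 312 young UMIs, or 208 and 152 CPM, a ratio of 1.37 (1.21 to 1.555). After thinning, 8.62% (7.58 to 9.74) of aged and 6.21% (4.88 to 7.76) of young neutrophils held a Cd177 UMI, against 30.4% and 20.02% as deposited. NK and Fol B-cell labelled cells together, in which the gene is not thought to be expressed, had 0 of 104 aged and 0 of 87 young thinned cells with a UMI, which, at 3 cells of the total, allows shares of cells with a UMI of up to 2.88% and 3.45%. As deposited these cells had a UMI in 7.69% and 2.30%, at median depths of 2847 and 2079 UMIs, against 1914 and 1636.5 UMIs in neutrophils.

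Monocytes carried Cd177 UMIs as well, at 42.5 CPM in the aged and 48.8 CPM in the young library, with a ratio of 0.872 (0.721 to 1.06), the other side of 1 from neutrophils. The difference between the 2 populations' ratios was not tested. In UMIs per cell, Cd177 of monocytes over neutrophils came to 0.663 in the aged and 1.20 in the young library. Thinned, 2.62% of aged and 1.99% of young monocytes held a UMI, which too few NK and Fol B-cell labelled cells were measured to set against a background. By CPM those cells had 22.97 CPM (11.02 to 42.3) in the aged and 8.88 CPM (1.08 to 32.1) in the young library, against intervals of 37.8 to 47.8 CPM in aged and 41.9 to 56.5 CPM in young monocytes, so the intervals overlapped in the aged library and not in the young. Of their UMIs, 8 aged and 1 young came from Fol B-cell labelled cells, which also carried the neutrophil and monocyte markers given above. NK cells alone had 12.3 CPM (1.49 to 44.5) in the aged and 6.32 CPM (0.160 to 35.2) in the young library. Their intervals likewise overlapped that of monocytes in the aged library only. Neutrophil markers, S100a8 and S100a9 among them, summed to 38554 CPM in aged and 24405 CPM in young monocytes, and to 50330 and 12308 CPM in NK cells. Within these sums Retnlg was at 2743 and 1840 CPM in monocytes and at 8114 and 1859 CPM in NK cells. Ly6g was at 35.2 and 16.3 CPM in monocytes. How much of these sums was RNA from neutrophils was not tested. Per 100 UMIs of Ly6g, Cd177 had 121 UMIs in aged and 300.0 in young monocytes, against 26.5 aged and 36.5 young in neutrophils of the same libraries. Per 100 UMIs of Retnlg the figures were 1.55 and 2.65 in monocytes and 0.328 and 0.334 in neutrophils. In cDC they were 0.447 and 0.405, from 10 and 3 Cd177 UMIs, and in NK cells 0.152 and 0.340, from 2 and 1. The part of neutrophil RNA in the monocyte value was not tested.

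Icam1 encodes the ligand of LFA-1 and Mac-1, best known on endothelium and inducible on leukocytes. In neutrophils 13 aged and 12 young UMIs gave 2.30 and 5.84 CPM, too few for a call (0.395, 0.166 to 0.946). Monocytes held 28.1 and 32.8 CPM, 12.2-fold (6.96 to 23.3) above neutrophils in the aged and 5.62-fold (3.10 to 11.2) in the young library, and the age ratio there was 0.856 (0.678 to 1.08). cDC stood at 28.4 and 27.5 CPM, no different from monocytes beyond counting error in either library. NK cells had 3 aged and 11 young UMIs.

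**Figure D2:**
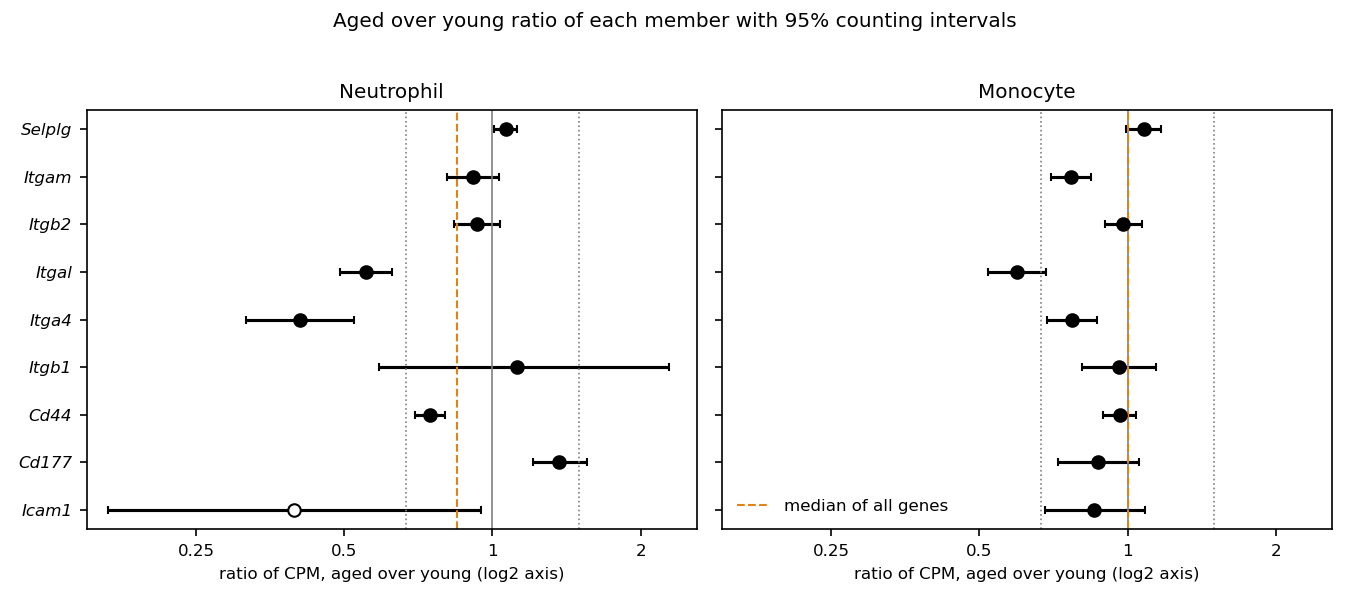
Ratio of CPM, aged over young (horizontal log2 axis), for each of the 9 genes in neutrophils and monocytes, with exact 95% intervals for counting error; grey dotted lines stand at 1.5-fold either way and the dashed line at the median ratio of all genes. Itgal lies left of the 1.5-fold line in both populations (0.553 and 0.597), Itga4 in neutrophils (0.406), and Icam1 in neutrophils is drawn open because it had fewer than 50 UMIs.

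Counted together, 8 of the 9 members had 50 or more UMIs in neutrophils, of which 0 were at least 1.5-fold higher and 2 (Itgal and Itga4) at least 1.5-fold lower in the aged library. Of all 4802 genes with as many UMIs, 3.71% were that much higher and 20.2% that much lower, so the members' count is near the background. The members' median log2 ratio was -0.12 and that of all genes -0.24. In monocytes all 9 members were measured, 0 were higher and 1 (Itgal) lower, against 5.66% and 8.73% of 7849 genes, with a median log2 ratio of -0.20 for the members and 0.00 for all genes. In cDC 7 members and in NK cells 4 were measured and 0 were past 1.5-fold either way, where the background was 9.95% higher and 5.97% lower in cDC and 6.81% and 12% in NK cells.

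Ratios in neutrophils leaned low, and a few transcripts took a larger share of the aged library. The 8 neutrophil markers, S100a8, S100a9 and Retnlg among them, made up 419779 CPM of aged and 333033 CPM of young neutrophils. With those 3 genes left out of the total the calls among all genes were 344 higher and 472 lower, and with TMM factors 518 higher (10.8%) and 337 lower (7.02%), which put the median gene at a log2 ratio of 0.07; the plain split was 178 higher and 972 lower. Relative to the median gene, Selplg stood at 1.25 (1.19 to 1.32), Itgam at 1.08, Itgb2 at 1.10, Itgal at 0.652, Itga4 at 0.479 (0.372 to 0.617), Cd44 at 0.880 and Cd177 at 1.61 (1.42 to 1.83). On that scale Cd177 was past 1.5-fold and Itgam and Itgb2 were above 1. Erythroid marker RNA in neutrophils was 269.5 CPM in the aged and 1002 CPM in the young library, monocyte marker RNA 2438 and 3409 CPM, and platelet marker RNA 33.5 and 15.1 CPM; the part of these in the ratios was not tested. Neutrophils without 2 or more UMIs of another cell type's markers, 2027 aged and 907 young cells, gave 0.566 for Itgal, 0.396 for Itga4 and 1.40 for Cd177.

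**Figure D3:**
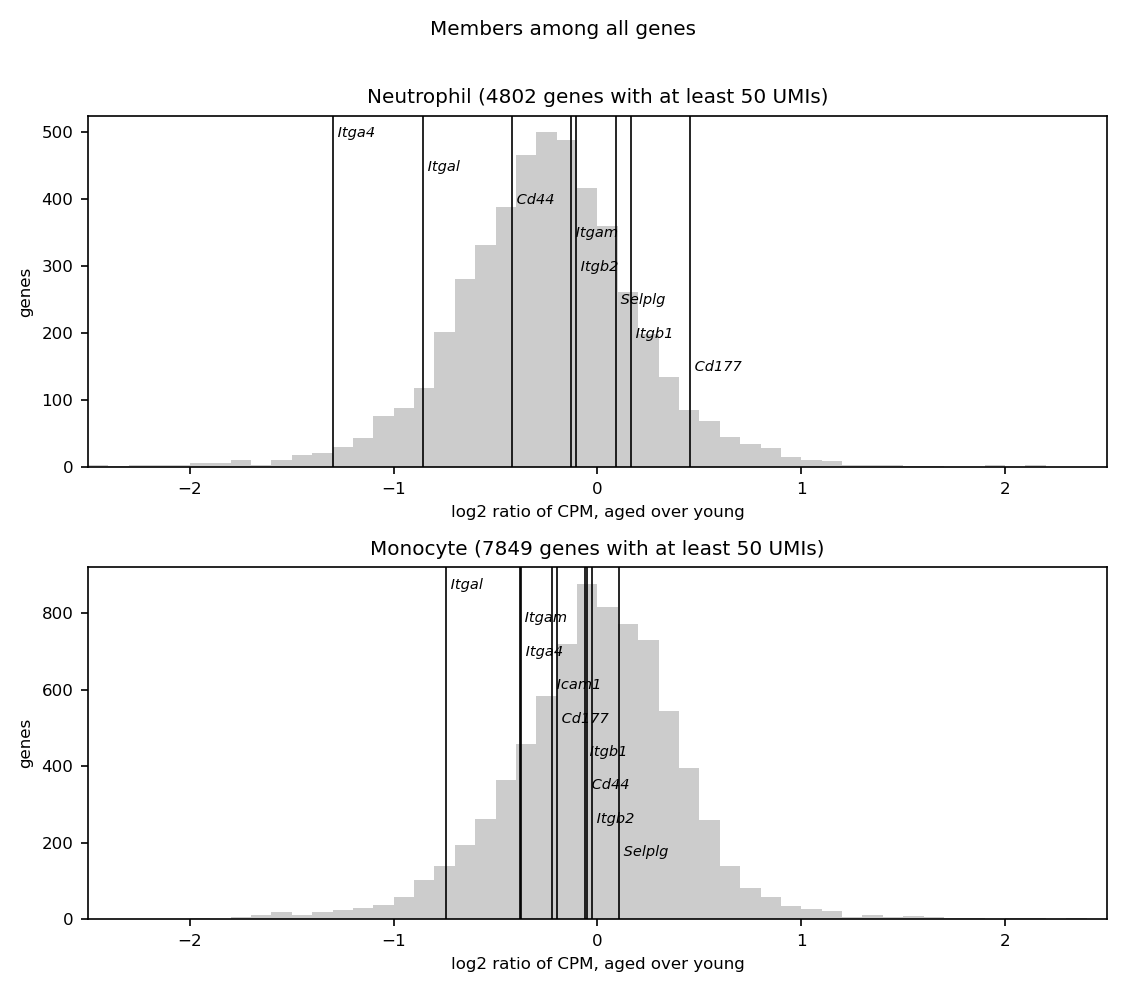
Distribution of the log2 ratio of CPM, aged over young (horizontal axis), over all genes with at least 50 UMIs (bars, number of genes), with a line at each member. In neutrophils 1.98% of the genes had a lower ratio than Itga4, 7.87% a lower one than Itgal and 94.3% a lower one than Cd177; in monocytes 4.99% lay below Itgal.

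Neutrophils were also read along a score meant to follow their maturation. Specific granule genes such as Ltf, Camp and Ngp are made early and fade as neutrophils mature. Cells were therefore put into tertiles of the share of a 13-gene list after thinning, with none of the 9 members in that list. Besides those 3 genes it held Mmp8, at 1592 aged and 1186 young CPM in neutrophils, and Ly6g, at 783 and 416 CPM. Of its other genes, Fcnb had 0 UMIs in young neutrophils, and Chil3 and Mgst1 are in the classical monocyte list used below as well. The list was not confined to neutrophils. It summed to 15306 aged and 11528 young CPM in them, against 8006 and 7132 CPM in monocytes. The early range held 863 aged and 167 young cells, the middle range 900 and 364 and the late range 918 and 613. These are ranges of a score and not cell types: 1337 aged and 690 young cells lay within 0.5 percentage points of the lower limit. Cd177 followed the score steeply, with 287.7 CPM in early, 186 CPM in middle and 142 CPM in late neutrophils of the aged library and 337, 148 and 95.03 CPM in the young library. Early over late, that was 2.03-fold (1.75 to 2.36) in the aged and 3.54-fold (2.68 to 4.68) in the young library.

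Aged over young, Cd177 was at 0.855 (0.697 to 1.06) in early, 1.25 (0.999 to 1.58) in middle and 1.49 (1.18 to 1.90) in late neutrophils, and 1.06 when the 3 ranges were weighted equally in both libraries, an alternative added after seeing the data. With ranges drawn from unthinned cells the ratios were 0.951 (0.792 to 1.15) in early, 1.42 (1.10 to 1.84) in middle and 0.978 (0.743 to 1.29) in late neutrophils, so the late value moved by over 1.5-fold and its interval then included 1. Early cells made up 32.2% of aged and 14.6% of young neutrophils. The pooled value was 1.37, and whether the ranges differ from each other was not tested.

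Itgal, Itga4 and Cd44 kept their direction in each of the 3 ranges. In unthinned ranges the Itgal ratio of late cells was 0.679 (0.561 to 0.822), short of 1.5-fold. In the thinned ranges Itgal ratios were 0.583 (0.434 to 0.793) in early, 0.569 (0.459 to 0.707) in middle and 0.603 (0.505 to 0.720) in late cells. For Itga4 they were 0.530 (0.285 to 1.05), 0.369 (0.234 to 0.582) and 0.434 (0.293 to 0.637), and for Cd44 0.773, 0.777 and 0.767. Within a library Itgal was lower in early than in late cells, 0.710-fold (0.588 to 0.856) in the aged and 0.734-fold (0.543 to 0.978) in the young library, and so was Cd44, 0.846-fold (0.767 to 0.933) and 0.839-fold (0.706 to 0.994). In unthinned ranges the young folds were 0.783 (0.603 to 1.01) for Itgal and 0.873 (0.747 to 1.02) for Cd44, so both intervals then included 1. The aged folds there stayed below 1, at 0.595 (0.491 to 0.721) and 0.764 (0.690 to 0.846). In the thinned ranges Selplg was slightly lower in early cells, 0.932-fold in the aged and 0.855-fold in the young library, while the intervals of Itgam and Itga4 included 1 in both libraries. Itgb2 went the other way in the aged library, at 1.18-fold (1.03 to 1.36), and was at 1.04-fold (0.804 to 1.34) in the young library. In unthinned ranges its aged fold was 1.12 (0.964 to 1.29), an interval that included 1.

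**Figure D4:**
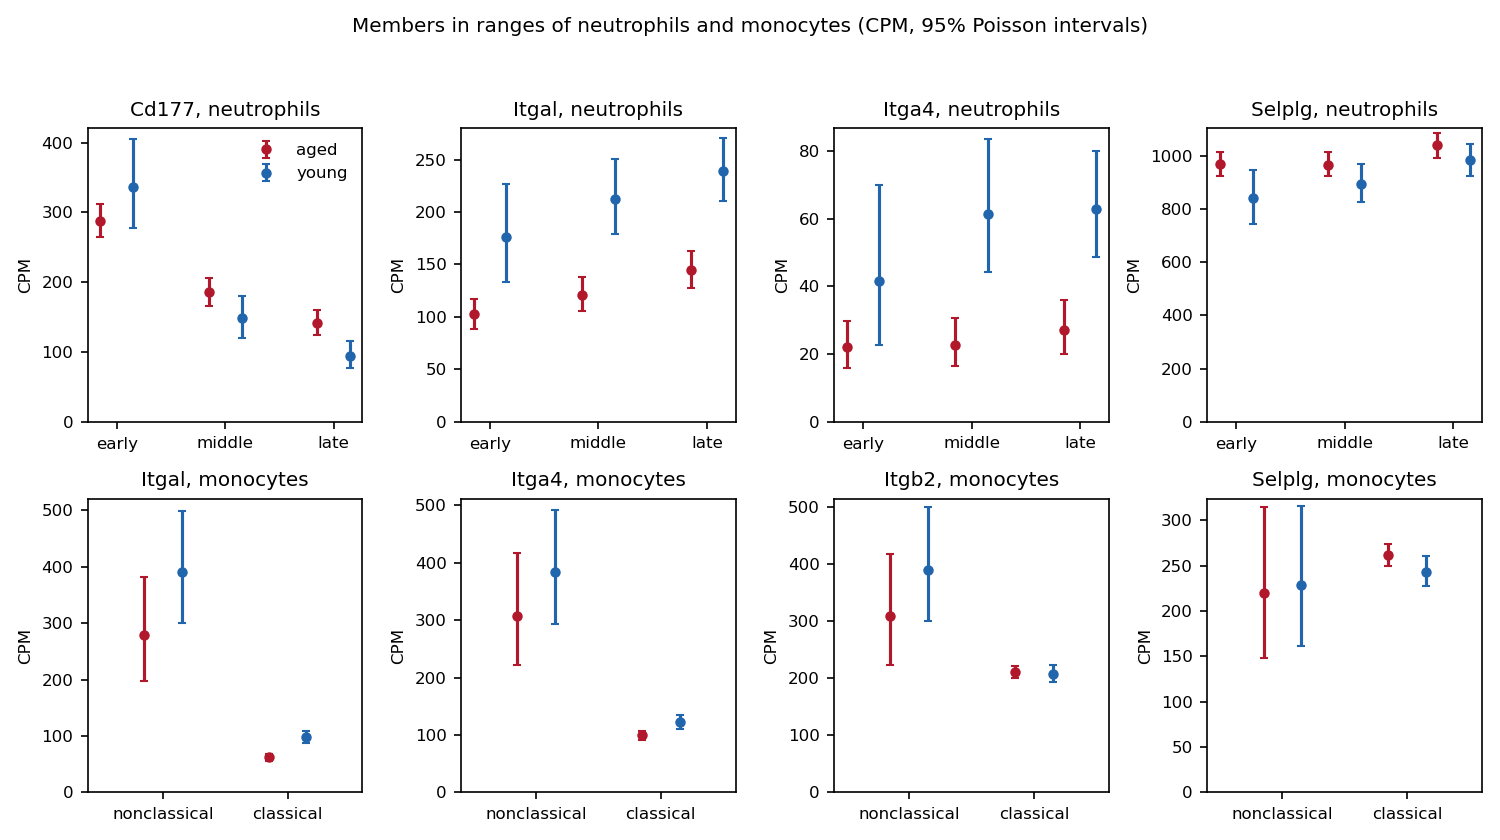
Level (vertical axis, CPM with exact 95% Poisson intervals) of chosen members in the early, middle and late ranges of neutrophils (upper row) and the nonclassical and classical ranges of monocytes (lower row), aged library in red and left, young library in blue. Cd177 declines from early to late cells in both libraries, Itgal and Itga4 of neutrophils are lower in the aged library in each range, and Itgal and Itga4 of monocytes are higher in the nonclassical range, at 279 and 308 CPM in the aged library.

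Monocytes in blood are of a classical kind, recruited to inflamed tissue, and a nonclassical kind that patrols vessel walls by means of LFA-1. Cells were assigned by which marker list had more UMIs, and none of the 9 members was in either list. That gave 36 aged and 34 young cells in the nonclassical range and 952 and 516 in the classical range, with 31 aged and 19 young cells near the limit. The lists were unequal in size of signal. In monocytes the classical list summed to 8929 aged and 8514 young CPM and the nonclassical list to 621 and 826 CPM, so the sizes of the ranges depend on the limit. Nonclassical cells were shallower, with medians of 3251 aged and 3316.5 young UMIs against 6457.5 and 6711 in classical cells. Itgal stood at 279 CPM in nonclassical against 62.1 CPM in classical cells of the aged library, and at 390.0 against 97.4 CPM in the young library, folds of 4.49 (3.13 to 6.27) and 4.00 (3.01 to 5.25). Itga4 was 3.10-fold (2.21 to 4.24) and 3.13-fold (2.36 to 4.10) higher in the nonclassical range, and Itgb1 2.84-fold (1.71 to 4.45) and 1.94-fold (1.11 to 3.20).

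Itgb2 was higher in nonclassical cells, 1.47-fold (1.05 to 1.99) in the aged and 1.875-fold (1.43 to 2.43) in the young library. Selplg was at 0.842 (0.566 to 1.21) and 0.940 (0.658 to 1.31). For Itgam the fold was 1.17 (0.764 to 1.73) in the aged and 0.661 (0.417 to 1.00) in the young library; with the limit at 0.7 the aged fold was 2.24 (1.32 to 3.56) from 18 UMIs. Cd44 was at 1.18 (0.858 to 1.597) and 1.42 (1.09 to 1.83), and Icam1 at 1.31 (0.42 to 3.11) from 5 UMIs in aged and 2.41 (1.21 to 4.39) from 12 UMIs in young nonclassical cells. Cd177 had 4 and 3 UMIs there. Within the nonclassical range the age ratio of Itgal was 0.715 (0.465 to 1.09) from 38 aged and 63 young UMIs, which is not distinguishable from 1 at this depth. With the limit at 0.3 it was 0.535 (0.404 to 0.706) from 88 and 132 UMIs, past 1.5-fold, and with the limit at 0.7 it was 0.884 (0.485 to 1.55) from 19 and 42 UMIs. The nonclassical range made up 3.63% of aged and 6.16% of young monocytes, and 8.56% and 11.6% with the limit at 0.3.

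An integrin needs both its chains. Among neutrophils with an Itgal UMI 34.8% of aged and 34.8% of young cells also held Itgb2, against 35.0% and 33.2% of the neutrophils without Itgal. For Itgam the shares with Itgb2 were 36.3% and 34.0% among cells with it and 34.4% and 33.5% among the others. Itgb1 was found in 0.775% of aged and 0% of young neutrophils with Itga4, against 1.37% and 1.26% of those without. In monocytes Itgb2 was found in 72.8% of aged and 72.7% of young cells with Itgam, against 71.2% and 61.4% of cells without, and in 74.5% and 75.5% of cells with Itgal, against 71.1% and 64.3%. Itgb1 of monocytes was found in 33.3% of aged and 32.0% of young cells with Itga4, against 24.95% and 23.5% of cells without; these shares were not adjusted for depth, which the cells with more UMIs of any gene share.

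Across the 10 sums of a population in a library with at least 20 cells, levels on the log2(CPM + 10) scale of Cd44 and Cd177 followed each other most closely (Pearson correlation 0.97), then Itga4 and Icam1 (0.81), while Itgb1 ran against Cd177 (-0.84) and Cd44 (-0.83). These 10 points share 2 libraries and a few cell types and describe where the genes are found. Among 5741 genes the 3 most alike were Acta2, Fpr2 and Pabpc1l for Cd177 (0.99, 0.98 and 0.98) and Acta2, Pilra and Txn1 for Cd44 (0.98 each). Anxa6, Ubac2 and Ankrd10 were most like Itgb1 (0.99, 0.98 and 0.98), Cpsf3, Med1 and Chmp1a most like Itga4 (0.96, 0.95 and 0.95), and Irak1, Isg20l2 and Cbx3 most like Icam1 (0.975, 0.97 and 0.96). For Selplg they were Ubald2, Arrb2 and Ppp1r18 (0.94, 0.92 and 0.92), for Itgam Nfil3, Hacd4 and Samhd1 (0.95, 0.93 and 0.93), for Itgb2 Slc4a2, Atp11b and 3110002H16Rik (0.94, 0.93 and 0.93), and for Itgal, with the weakest likeness, Pdzd8, Dennd1b and Scyl2 (0.91, 0.90 and 0.89).

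Other genes of the adhesion pathway were read from 6 lists by function. Of 11 measured selectins and genes of selectin ligands, 0 were past 1.5-fold higher and 1 lower in aged neutrophils; that gene, Glg1, stood at 0.628 (0.390 to 1.03). Of 12 measured in monocytes 2 were higher and 2 lower. Over all genes 3.71% were higher and 20.2% lower in neutrophils, and 5.66% and 8.73% in monocytes; the counts of this list and of those that follow are to be read against these shares. Ezr, a linker of membrane proteins to actin, was at 1.73 (1.49 to 2.01) there, and B4galt1, a galactosyltransferase of ligand glycans, at 0.549 (0.429 to 0.703). The list's median log2 ratio was -0.02 in neutrophils and -0.01 in monocytes, against -0.24 and 0.00 for all genes.

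Among other integrin subunits Itgb7, a β partner of α4, was at 0.577 (0.385 to 0.876) in neutrophils, 1 of 2 measured, and at 0.806 (0.733 to 0.887) in monocytes. Its level was 11.5 aged and 19.9 young CPM in neutrophils, against 158 and 196 CPM in monocytes. The part of monocyte RNA in its neutrophil ratio was not tested. In monocytes 3 of 5 were lower: Itgax, the αX chain, at 0.452 (0.288 to 0.7065), the fibronectin receptor chain Itga5 at 0.605 (0.435 to 0.841) and Itgav at 0.666 (0.482 to 0.923). The list's counts, 1 of 2 against 20.2% of all genes and 3 of 5 against 8.73%, rest on few genes. Of 22 measured genes of integrin activation, 0 were higher and 2 lower in neutrophils, no larger a share than the 20.2% of all genes, the adaptor Pxn (paxillin) at 0.609 (0.533 to 0.697) and Parvg at 0.588 (0.398 to 0.8765). In monocytes 1 of 22 was lower, against 8.73% of all genes, Parvb at 0.651 (0.421 to 1.01), and Tln1, whose product talin switches integrins on, was at 1.20 (1.11 to 1.30).

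Signalling from bound integrins runs through tyrosine kinases and their adaptors. Of 20 measured genes 0 were higher and 4 lower in aged neutrophils: the kinase gene Syk at 0.6335 (0.550 to 0.731), Plcg2 at 0.520 (0.365 to 0.746), Dock2 at 0.6545 (0.527 to 0.815) and Pik3cg at 0.611 (0.4345 to 0.867). That share is near the background of 20.2% given above. In monocytes 2 of 20 were lower, the kinase gene Ptk2b at 0.598 (0.490 to 0.729) and Dock2, an activator of Rac in migration, at 0.6585 (0.5585 to 0.777), again near the background of 8.73%. The list's median log2 ratio was -0.34 in neutrophils and -0.31 in monocytes, against -0.24 and 0.00 for all genes.

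Immunoglobulin-type adhesion molecules and sheddases make up the last lists, for which the same shares of all genes hold (3.71% higher and 20.2% lower in neutrophils, 5.66% and 8.73% in monocytes). In neutrophils 2 of 5 of the first kind were lower, Amica1, a junctional adhesion molecule, at 0.544 (0.478 to 0.619) and Alcam at 0.579 (0.410 to 0.824), while Cd47 was at 1.25 (1.13 to 1.38). In monocytes 1 of 10 was higher, Cd2 at 1.845 (0.976 to 3.73), and 2 lower, F11r at 0.611 (0.462 to 0.8095) and Pecam1 at 0.563 (0.332 to 0.953), both found in endothelial junctions as well. Of the sheddases, matrix proteins and hyaluronan genes 1 of 10 was higher in neutrophils and 2 were lower. The higher one was Spp1 at 1.74 (0.837 to 4.06) from 43 aged and 9 young UMIs, an interval that included 1. Its level there was 7.62 and 4.38 CPM, against 157 and 35.8 CPM in monocytes, and the part of monocyte RNA in it was not tested. The lower ones were the sheddase gene Adam17 at 0.437 (0.262 to 0.735) and Fn1 at 0.498 (0.367 to 0.679). Fn1 stood at 18.4 aged and 37.0 young CPM in neutrophils, against 552 and 816 CPM in monocytes. The part of monocyte RNA in its neutrophil ratio was not tested. In monocytes 2 of 12 were higher, the CD44 ligand gene Spp1 (osteopontin) at 4.38 (3.65 to 5.29) and Mmp9 at 1.53 (1.26 to 1.87), and 0 were lower. Mmp9 is in the neutrophil marker list, and stood at 57.8 aged and 37.7 young CPM in monocytes, against 1158 and 1034 CPM in neutrophils. The part of neutrophil RNA in its monocyte ratio was not tested.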

How the data were processed

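Blood myeloid cells of 1 aged and 1 young library were measured with the 10x Chromium 3′ kit, version 2, per the labels' protocols. Reads had been processed with Cell Ranger 2.1.1, with mm10 as genome build, per the submitters' processing notes; how cells and genes were filtered is not given in the sources used here. The authors deposited 1 table of raw UMI counts per gene and cell, whole numbers without normalization, with a library and a population label for each of 5793 cells. The label in the table and the library in the cell names matched for 5793 cells, and 0 columns belonged to samples outside the series.

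From these counts UMIs were summed per population and library and divided by the population total (CPM). Poisson, conditional binomial and Clopper-Pearson 95% intervals came from scipy 1.17.1 in Python 3.11.15, with numpy 2.4.6 and pandas 2.3.3, and TMM factors from edgeR 4.0.16 in R 4.3.3, used for scaling only. Median depth was 2219 UMIs per aged and 2022 per young cell, with lowest depths of 1451 and 1260. UMIs remove PCR copies, so intervals cover the counting of captured molecules only. Shares of cells were taken as deposited and after thinning to 500 UMIs per cell. No cell was removed as a doublet in the values reported; removal at 8 per 1000 for each 1000 cells, by highest UMIs (123 aged and 27 young cells), and by markers of another type were alternatives. Monocyte ranges were split at equal UMIs of 2 marker lists and neutrophil ranges at tertiles (1% and 1.6% of thinned UMIs in the specific granule list). The ratio procedure was tested on simulated counts.

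The members, gene lists and markers were chosen with earlier results of these data known. Genes named are all members, the 3 genes most like each member among those with 200 or more UMIs, and from each list up to 4 with most UMIs and up to 4 farthest past 1.5-fold. Alternatives covered scaling, genes in the total, cell filters, depth, doublets, count minimums and range limits; 4 were added after seeing the data. Reads of antisense or overlapping genes were not examined. One gene that the rule names is not reported here.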

Additional observations from a re-analysis of the deposited data

How the results depend on the processing

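Of 286 member ratios under alternatives 253 stayed within the counting interval of the reported ratio and 33 moved outside it. Of the ratios whose reported interval excluded 1, 0 crossed to the other side of 1. The count of members at least 1.5-fold higher in aged neutrophils, 0 as reported, was 1 with TMM factors, 1 when centred on the median ratio, 1 without S100a8, S100a9 and Retnlg in the total and 1 in cells with at least 500 genes and 1000 UMIs; the gene was Cd177, at 1.695, 1.61, 1.57 and 1.501. The count at least 1.5-fold lower, 2 as reported, was 1 with TMM factors, where Itgal was at 0.685. Over the alternatives run, Itgal ranged from 0.534 to 0.685 and Itga4 from 0.337 to 0.503 in neutrophils, and Itgal from 0.508 to 0.768 in monocytes. Itgam and Itgb2 in neutrophils turned from below to above 1 with TMM factors, centring, or without the 3 genes.

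Counts over all genes in neutrophils, 178 higher and 972 lower as reported, were 518 and 337 with TMM factors, 397 and 419 when centred, 344 and 472 without the 3 genes, 90 and 484 after thinning, 386 and 1608 from 20 UMIs and 50 and 353 from 200 UMIs. In monocytes 444 and 685 became 242 and 108 after thinning, 670 and 1065 from 20 UMIs and 181 and 199 from 200 UMIs. Thinning also put Cd177 at 1.31 (0.627 to 2.95) and Icam1 at 2.085 (0.664 to 8.63) in monocytes, on few UMIs. Of 50 range folds 41 held, 8 moved and 1 reversed: Icam1 in nonclassical over classical young monocytes was 0.940 (0.191 to 2.815) at a limit of 0.7, against 2.41 as reported. With ranges made from unthinned cells the early over late fold of Cd177 in the aged library was 3.03 (2.5 to 3.70). Of the 27 genes most like a member 9 were also named by Spearman correlation.

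Removing cells with 2 or more UMIs of another type's markers took out 1899 aged and 913 young cells and left 6 aged and 14 young monocytes, 0 and 0 cDC and 1 and 4 NK cells, so it gave values for neutrophils only. No paired analysis was possible because each age has 1 library. Depth limits Icam1 and Itgb1 in neutrophils and the less abundant members in the smaller populations, where intervals are wide; with 1 library per age, no interval covers the spread between mice.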

Other observations

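As deposited, 3.10% of aged and 1.22% of young neutrophils held 3 or more Cd177 UMIs, and 2.42% of aged and 6.34% of young monocytes held 3 or more of Itgal.

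Cells labelled Eryth-Neutro, 15 aged and 13 young, had 20 and 6 Selplg UMIs and 12 and 8 Cd44 UMIs, and 0 Icam1 UMIs in both libraries. The cells labelled Mast cell, all 44 of them in the aged library, had 753.5 CPM of Selplg (596.5 to 939), 305 CPM of Itgb2 (209 to 431) and 219 CPM of Itgam (139 to 329).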
